A study of Homo sapiens with 16 samples.

Results

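Developmental transcription factors outside the HOX clusters were followed here in myeloma cells given inhibitors of histone methylation. They were the genes of the SOX, GATA, TBX, LHX, SIX4 (SIX4 and its relatives), NKX, DLX, PITX, IRX, MSX, POU3F and POU4F families, chosen by gene symbol alone. The rule found 89 genes, read by 107 probes, of 32080 gene symbols on the array. The SOX family gave 19 genes, the TBX and NKX families 13 each, the LHX family 8, the DLX, GATA, IRX and SIX4 families 6 each, POU3F 4, PITX and POU4F 3 each, and MSX 2.

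These genes encode DNA-binding proteins that set cell identity in the embryo: homeobox proteins (LHX, SIX4, NKX, DLX, PITX, IRX, MSX and POU), T-box proteins (TBX), HMG-box proteins (SOX) and zinc finger proteins (GATA). In differentiated cells many of them are kept silent by Polycomb repressive complex 2, whose catalytic subunit EZH2 methylates lysine 27 of histone H3, and many lie in CpG-rich promoters. G9a, encoded by EHMT2, methylates lysine 9 of histone H3 and also takes part in gene silencing.

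RPMI-8226 and MM.1S, established human multiple myeloma cell lines, were given DMSO (the solvent control), the EZH2 inhibitor GSK126 (1 µM), the G9a inhibitor UNC0638 (1 µM) or both (1 µM each) for 6 days, with 2 biological replicates in each of the 8 groups and 1 array per sample. Total RNA of a whole culture was measured, so a change in every cell and a change in a few cells cannot be told apart. All 8 arrays of a line shared 1 slide, so the line and the slide cannot be told apart either, while each treatment could be set against DMSO on its own slide. The normalized signal given below is the log2 intensity of a probe minus the 75th percentile of its array, so that 0 is the 75th percentile and a step of 1 is a factor of 2. A signal counted as above background where the scanner software called it well above background.

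Between 46.5% and 49.7% of the spots of an RPMI-8226 array and between 49.9% and 52.8% of those of an MM.1S array were above background. The plasma cell markers on the array, 9 of 9, were above background on both arrays of all 8 groups. Of 4 T cell markers, 3 were above background on both DMSO arrays of RPMI-8226 and 2 on those of MM.1S. Markers of other cell types were not all absent. Of 4 epithelial markers, 2 were above background on both DMSO arrays of each line, 1 was in all 8 groups, and CDH1 was on no array. Their summed linear signal, in units of the array's 75th percentile, was 31.3 to 41.3 with DMSO in RPMI-8226 and 0.597 to 0.656 in MM.1S. Of 3 myeloid markers, 3 were above background with DMSO in RPMI-8226 and 2 in MM.1S, and of 4 stromal markers 1 and 0 were.

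Most of the developmental factors were silent at the sensitivity of these arrays, with or without the inhibitors. With DMSO, 18 of 89 genes (20.2%) were above background on both arrays of RPMI-8226 and 31 (34.8%) on both arrays of MM.1S, against 46.0% and 49.1% of all gene symbols. In RPMI-8226 the number was 23 (25.8%) with GSK126, 23 (25.8%) with UNC0638 and 24 (27.0%) with the combination. Over all gene symbols it was 46.2%, 46.9% and 47.9%. Of the genes so added, DLX4, IRX4, LHX8, POU3F2 and TBX1 were already above background on 1 DMSO array. In MM.1S the number was 30 (33.7%), 27 (30.3%) and 27 (30.3%), beside 49.9%, 50.1% and 50.4% of all gene symbols. On no array at all were 46 of the 89 genes above background. They were 13 of the 19 SOX genes, 7 of 13 NKX genes, 6 of 13 TBX genes, 4 of 6 GATA genes, 4 of 6 IRX genes, 3 of 6 genes of the SIX4 family, 3 of 8 LHX genes, 2 of 6 DLX genes, 2 of 3 POU4F genes, 1 of 3 PITX genes and 1 of the 2 MSX genes. Among them were GATA1 and GATA2, regulators of red cell and blood stem cell development, SOX9, needed for cartilage, SOX10, needed for the neural crest, and TBX5, needed for the heart and forelimb. All 4 POU3F genes, which act in neural development, were above background on some array. Only 14 of the 89 genes were read by more than 1 probe. DLX1, LHX3, TBX15 and POU4F1, among others, had a probe below background on every array beside a probe that was not. A gene counted as silent may thus be expressed and missed by its probe.

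The lines differed in which factors were above background in some group, treated groups included. Of the 89 genes, 19 were above background on both arrays of a group in each line, 13 in MM.1S but not RPMI-8226, 7 in RPMI-8226 but not MM.1S, and 50 in neither, 4 of which were above it on lone arrays. Among the 13 were SOX2, SOX4, SOX11, PITX1, LHX2, LHX6, GATA3, GATA4, DLX1, DLX6, NKX6-3 and POU3F4, and the 7 were NKX2-1, TBX10, POU4F1, IRX4, TBX3, TBX15 and TBX21. With DMSO, however, TBX3, TBX15 and TBX21 were below background in RPMI-8226, as was GATA3 in MM.1S, and IRX4 was above it on 1 array. Lone arrays of the other line were above background for SOX11 and POU3F4 (RPMI-8226) and for POU4F1 and TBX10 (MM.1S). The same split was not counted over all gene symbols. SOX2, a factor of pluripotent and neural progenitor cells, had a normalized signal of 2.32 and 2.42 with DMSO in MM.1S and was not above background on any RPMI-8226 array, with signals from -6.45 to -6.04. PITX1, which specifies the hindlimb, was at 4.67 and 4.70 with DMSO in MM.1S and not above background on any RPMI-8226 array. NKX2-1, a factor of thyroid and lung, stood the other way, at -2.92 and -1.45 with DMSO in RPMI-8226, and was not above background on any MM.1S array. No test was made of levels between the lines, since each line had its own slide.

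**Figure D1:**
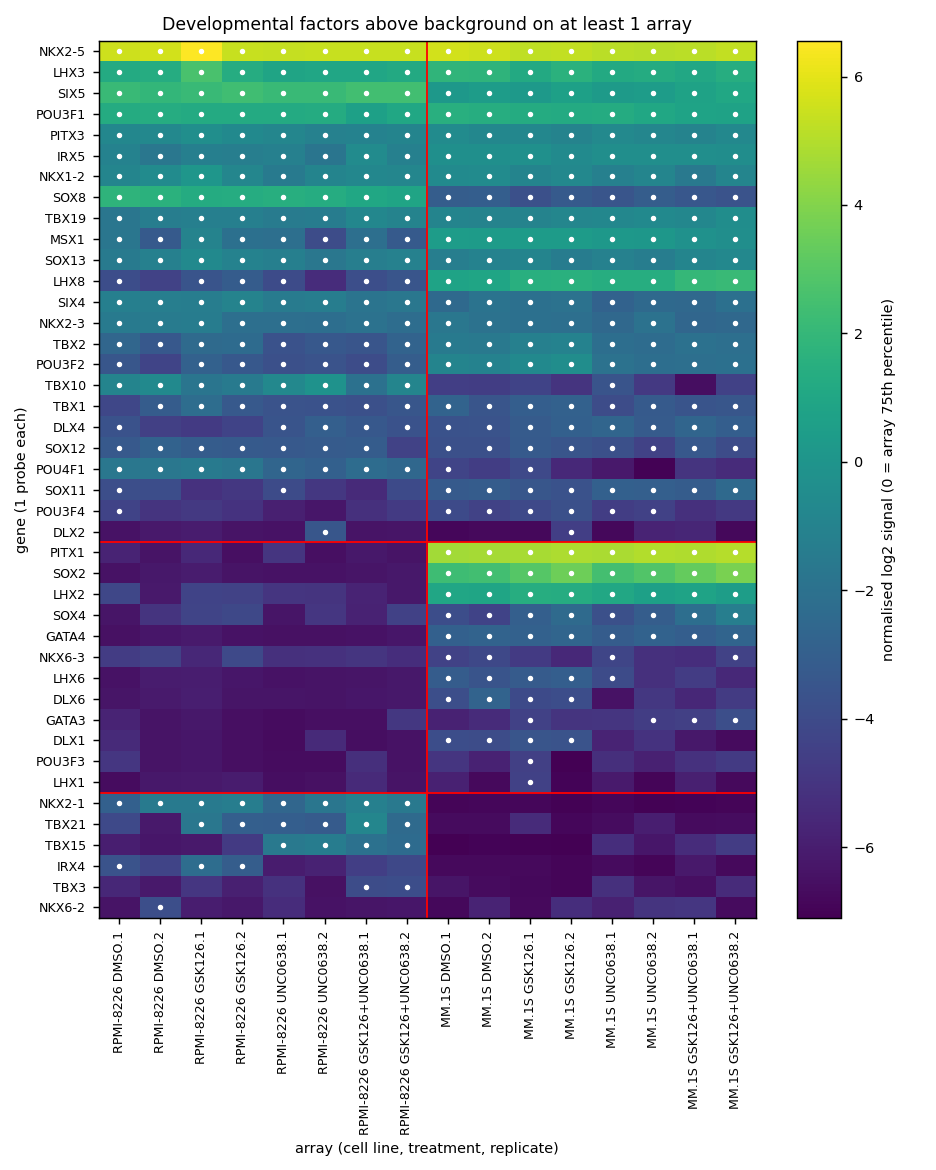
Normalized log2 signal of 42 of the 43 genes that were above background on at least 1 of the 16 arrays (rows, 1 probe each; columns, arrays by cell line, treatment and replicate). White dots mark signals above background, and red lines separate the lines and the 24, 12 and 6 genes shown that were above background on arrays of both lines, of MM.1S only and of RPMI-8226 only.

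Above background in all 8 groups were 14 genes: IRX5, LHX3, MSX1, NKX1-2, NKX2-3, NKX2-5, PITX3, POU3F1, SIX4, SIX5, SOX8, SOX13, TBX2 and TBX19. NKX2-5, a cardiac factor that T cell leukemias can activate, was at 5.51 and 5.65 with DMSO in RPMI-8226 and at 5.64 and 5.49 in MM.1S. SOX8 was at 1.80 and 1.62 in RPMI-8226 and at -3.10 and -3.03 in MM.1S. TBX19, which drives the pro-opiomelanocortin gene of the pituitary, was at -1.73 and -1.33 in RPMI-8226 and at -0.96 and -0.98 in MM.1S. LHX3 was read by 1 of its 2 probes, and the other was below background on all 16 arrays. By the probes that were above background, these factors were thus expressed with the solvent alone.

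To ask which silent factors the inhibitors switched on, genes were counted whose every probe was below background on both DMSO arrays and which had a probe above it on both treated arrays. In RPMI-8226, 63 of the 89 genes were silent with DMSO by this rule. TBX21 turned above background with GSK126, TBX21 and TBX15 with UNC0638, and TBX21, TBX15 and TBX3 with the combination. These were 1.59%, 3.17% and 4.76% of the 63, beside 0.933%, 1.28% and 3.97% of the 16186 silent genes of all symbols. In MM.1S, 57 were silent and only GATA3 turned above background, with the combination, which was 1.75% of the 57. The backgrounds there were 1.7% with GSK126, 2.57% with UNC0638 and 4.01% with the combination, of 15334 silent genes. The counts of 0 to 3 genes lay on either side of these backgrounds, and no test was made of the difference.

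TBX21 encodes T-bet, the factor of type 1 helper T cells that is also found in some B cells. Its signal in RPMI-8226 was -4.09 and -6.15 with DMSO, -1.70 and -2.96 with GSK126, -3.00 and -3.20 with UNC0638, and -0.85 and -2.39 with the combination. All 6 treated arrays were above background and above both DMSO arrays, which differed by more than the treated pairs. TBX21 was at least 3.41-fold higher with GSK126 (adjusted p = 0.277 by limma, 0.0344 with the replicate number as a block), at least 1.999-fold higher with UNC0638 (adjusted p = 0.479, 0.0884 with the block) and at least 5.58-fold higher with the combination (adjusted p = 0.0379, 0.00408 with the block). Such a bound sets the treated arrays against the lowest signal that was well above background on each DMSO array, or the probe's own signal where that was higher. The combination call held in 1 of 8 fits that each left out an array, the one without DMSO replicate 1 (adjusted p up to 0.188 in the others), and it was lost with quantile normalization and without the filter on dim probes. In MM.1S its signal stayed between -6.85 and -5.43, below background on all 8 arrays.

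TBX15, a T-box factor of skeletal and skin patterning, responded to UNC0638 and not detectably to GSK126. In RPMI-8226 its signal was -5.97 and -6.29 with DMSO and -6.19 and -4.79 with GSK126, all below background. It was -1.58 and -1.38 with UNC0638 and -2.00 and -2.30 with the combination, all above background and well clear of the other 4 arrays. It was at least 6.88-fold higher with UNC0638 than with DMSO (adjusted p = 0.0126) and at least 4.33-fold higher with the combination (adjusted p = 0.00300). The combination was also at least 3.96-fold above GSK126 alone (adjusted p = 0.0128). The combination call held without each array in turn, and the UNC0638 call was lost without either DMSO array (adjusted p = 0.0683 and 0.0716) or either UNC0638 array (0.0835 and 0.0928). The call against GSK126 was lost without either combination array (0.0960 and 0.0514). In MM.1S the signal was -7.05 and -6.95 with DMSO, -5.33 and -6.25 with UNC0638 and -5.35 and -4.69 with the combination, below background on all 8 arrays. The probe lies at chr1:119425724-119425783 on the minus strand (GRCh37), and the gene's other probe, at chr1:119433497-119433556, was below background on all 16 arrays.

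TBX3, a T-box repressor of limb and mammary development, was above background only with the combination in RPMI-8226. Its signal was -5.56 and -6.19 with DMSO, -4.96 and -5.90 with GSK126, -5.13 and -6.47 with UNC0638, and -3.91 and -3.89 with the combination. It was at least 1.29-fold higher with the combination than with DMSO (adjusted p = 0.0481, 0.0106 with the block) and at least 1.42-fold higher than with UNC0638 (adjusted p = 0.110, 0.0230 with the block). The call against DMSO held in 2 of 8 fits that left out an array (adjusted p up to 0.189), and was lost with quantile normalization, with normexp background correction and without the filter on dim probes. The gene's other probe was below background on all 16 arrays.

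GATA3, the factor of type 2 helper T cells, was the gene that turned on in MM.1S. Its signal was -5.80 and -5.40 with DMSO, -4.44 and -5.03 with GSK126, -4.97 and -4.61 with UNC0638, and -4.49 and -3.85 with the combination. It was below background on both DMSO arrays, above it on 1 of 2 arrays with each agent alone and on both with the combination. It was at least 1.52-fold higher with the combination (adjusted p = 0.00919), and the adjusted p was 0.0532 without DMSO replicate 1. With normexp background correction its fitted log2 change was 0.29 in place of 1.43 and was still called. On RPMI-8226 arrays GATA3 was below background throughout. With a laxer flag of the software (positive and significant) none of TBX21, TBX15, TBX3 and GATA3 counted as turned on, while SOX5 and SOX6 did in RPMI-8226 and SOX5 in MM.1S with the combination.

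T cell genes moved beside these factors. Of 4 T cell markers (CD2, CD3D, CD3E and CD3G), all 4 rose in RPMI-8226 with the combination (8.12% of all genes did), with a median log2 change of 4.82, and 3 rose with UNC0638 (0.648% of all genes) and 1 with GSK126 (0.66%). In MM.1S, 3 were tested and 2 rose with UNC0638 (13.8% of all genes) and 2 with the combination (23.3%). CD3E turned above background with UNC0638 and with the combination in each line. CD14 of the myeloid list rose in RPMI-8226 with GSK126 and with the combination, as did LUM and COL1A2 of the stromal list with the combination. Of 9 plasma cell markers, 3 fell and 1 rose in RPMI-8226 with the combination (5.01% and 8.12% of all genes), and 8 fell in MM.1S (31.9% of all genes). EPCAM of the epithelial list fell in both lines with the combination, and DCN of the stromal list rose in MM.1S with GSK126 and with the combination. CD68 of the myeloid list fell in MM.1S with GSK126 and rose with UNC0638 and with the combination. The summed linear signal of the 4 T cell markers, in units of the array's 75th percentile, was 0.411 to 0.489 in RPMI-8226 with DMSO, 0.921 to 1.505 with GSK126, 3.98 to 4.69 with UNC0638 and 12.4 to 14.1 with the combination. In MM.1S it was 0.232 to 0.265, 0.236 to 0.299, 0.768 to 0.880 and 0.745 to 0.824. That of the 9 plasma cell markers was 297 to 348 with DMSO and 197 to 246 with the combination in RPMI-8226, and 575 to 580 and 394 to 405 in MM.1S. Their part in the changes of TBX21 and GATA3 was not tested.

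**Figure D2:**
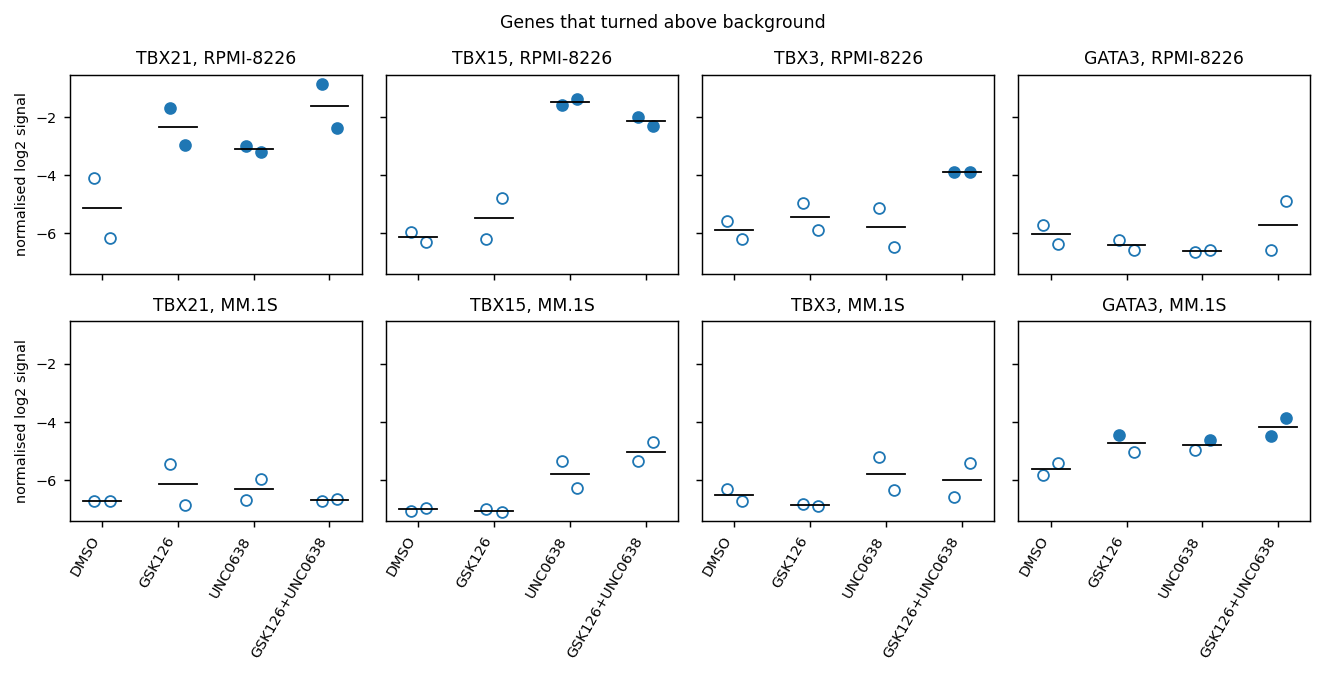
Normalized log2 signal (vertical axis) of TBX21, TBX15, TBX3 and GATA3 by treatment in RPMI-8226 (top) and MM.1S (bottom), 2 arrays a group. Filled points are above background, open points are not, and bars are means: in RPMI-8226, TBX21 lay above DMSO with each treatment, TBX15 with UNC0638 and the combination, and TBX3 was above background with the combination only. GATA3 lay above DMSO in MM.1S.

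The promoters of genes that switched on (TBX21 and GATA3) and of genes that fell below background in MM.1S (DLX1 and DLX6, described below) are shown so that their CpG content, which marks many Polycomb targets, can be read. The RefSeq promoter table (GRCh38.p14) held 58 of the 89 genes, without TBX15 and TBX3. Each sequence is the 250 bases before the annotated start, 5′ to 3′ on the gene's strand, with each CG in capitals.
TBX21, chr17:47732986-47733235, plus strand: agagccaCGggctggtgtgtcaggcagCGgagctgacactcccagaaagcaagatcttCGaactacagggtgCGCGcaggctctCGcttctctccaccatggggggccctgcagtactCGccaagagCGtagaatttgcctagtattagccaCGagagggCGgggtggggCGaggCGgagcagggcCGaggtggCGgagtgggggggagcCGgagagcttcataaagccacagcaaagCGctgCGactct
GATA3, chr10:8045083-8045332, plus strand: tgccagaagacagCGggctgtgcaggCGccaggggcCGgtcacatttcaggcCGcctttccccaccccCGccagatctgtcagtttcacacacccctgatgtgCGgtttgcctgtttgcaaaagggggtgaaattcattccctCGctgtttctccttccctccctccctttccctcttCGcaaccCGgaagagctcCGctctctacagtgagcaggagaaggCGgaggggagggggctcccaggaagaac
DLX1, chr2:172085257-172085506, plus strand: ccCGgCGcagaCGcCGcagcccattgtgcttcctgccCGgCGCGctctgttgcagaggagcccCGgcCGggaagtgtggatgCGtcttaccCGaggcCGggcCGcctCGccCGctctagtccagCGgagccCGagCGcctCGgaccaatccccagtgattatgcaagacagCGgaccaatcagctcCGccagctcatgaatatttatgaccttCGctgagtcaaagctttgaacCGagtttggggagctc
DLX6, chr7:97005303-97005552, plus strand: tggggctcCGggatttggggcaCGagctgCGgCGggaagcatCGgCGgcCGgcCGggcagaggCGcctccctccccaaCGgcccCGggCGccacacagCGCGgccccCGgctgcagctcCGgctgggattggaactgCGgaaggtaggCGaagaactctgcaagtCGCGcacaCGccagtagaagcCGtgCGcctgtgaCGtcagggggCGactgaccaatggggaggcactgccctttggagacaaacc

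The CG dinucleotide, which reads the same on both strands, occurred 17 times before TBX21, 11 times before GATA3, 23 times before DLX1 and 25 times before DLX6. Of all 27305 promoters in the table, 93.6% held a CG, and 38.8%, 50.02%, 25.4% and 21.3% held at least as many as these 4. Over the 58 genes the median was 21 CG in 250 bases, against 11 over all promoters. A GC content over 50% with an observed to expected CG ratio over 0.6 was met by 79.3% of the 58 and by 44.7% of all promoters. The 29 promoters of genes below background on every array and the 29 of genes above it on some array both met it in 79.3% of cases, with medians of 20 and 22 CG. Over all symbols below background on every array, 2867 of which had a promoter in the table, the median was 5.

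In RPMI-8226, 26 of the 89 genes had a probe above background on both arrays of a group and were tested with limma. GSK126 alone changed 0 of 26 at an adjusted p under 0.05, with 3 at an unadjusted p under 0.05, and 1 (TBX21) with the replicate block. Over all genes tested 0.66% rose and 0.0623% fell. The median log2 change of the 26 was 0.35, with 20 of 26 above 0, against -0.05 over all genes, and it was 0.14 without GSK126 replicate 1 and 0.22 without DMSO replicate 2. That GSK126 array had the highest signal of the line for NKX2-5 (6.56, against 5.43 on the other GSK126 array) and for LHX3 (2.64, against 1.36). UNC0638 changed 1 of 26, TBX15, against 0.648% higher and 0.0809% lower over all genes, and the block added a fall of POU4F1 (log2 change -1.07, adjusted p = 0.0242). TBX15 was tested only because of its signal with UNC0638 and with the combination.

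The combination changed 5 of 26 genes in RPMI-8226, 3 upwards (TBX15, TBX21 and TBX3) and 2 downwards, against 8.12% higher and 5.01% lower over all genes. The 3 that rose were below background on both DMSO arrays and were tested only because of their signal with an inhibitor. No gene above background on both DMSO arrays was called higher. POU4F1, a factor of sensory neurons, was at -1.71 and -1.70 with DMSO and at -2.28 and -2.55 with the combination, and fell by 0.71 on the log2 scale (SE 0.17, adjusted p = 0.0430). It was also lower with UNC0638, at -2.64 and -2.91, and not with GSK126, at -1.53 and -1.73. The other POU4F1 probe was below background on every array of both lines, so the POU4F1 values rest on a single probe. SOX8, which acts in the neural crest and testis, went from 1.80 and 1.62 to 1.05 and 0.89 and fell by 0.74 (SE 0.14, adjusted p = 0.0239). The arrays of the groups did not overlap for either gene. With the block, 7 genes were called, TBX19 (log2 change 0.65, adjusted p = 0.0483) and SIX4 (-0.56, adjusted p = 0.0461) in addition. With the percentile taken over probes detected on all arrays, 4 rose and 0 fell: TBX19 was gained and POU4F1 and SOX8 were lost. Without 1 array at a time, SOX8 kept its call in 2 of 8 fits and POU4F1 in 0 of 8. The other 21 genes did not pass, among them NKX2-1, at -1.16 and -1.60 with the combination.

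IRX4, a ventricular homeobox gene, was above background in RPMI-8226 with DMSO on 1 array (-3.62, and -4.29 on the other) and with GSK126 on both (-2.20 and -3.08). It was below background on both arrays with UNC0638 (-6.06 and -5.77) and with the combination (-4.56 and -4.13). The UNC0638 change did not pass (adjusted p = 0.0968).

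In MM.1S the same inhibitors moved more of the factors, and 32 of the 89 genes were tested. GSK126 alone raised 2 of 32, LHX8 and TBX2, and lowered 0, against 5.74% and 2.38% over all genes. UNC0638 raised 2, LHX8 and DLX4, and lowered 6, among them TBX2, DLX1, DLX6, POU3F2 and NKX2-5, against 13.8% and 16.7%. The combination raised 7 (21.9% of 32) and lowered 12 (37.5%), against 23.3% and 31.9% over all genes. GATA3, 1 of the 7, was below background with DMSO and was tested only because of its signal with the combination. The median log2 change of the 32 with the combination was -0.24, against -0.11 over all genes. The shares were thus near the background in each direction. With the percentile taken over probes detected on all arrays, 9 rose and 8 fell, and the median over all genes moved from -0.11 to 0.08.

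Of the genes that rose in MM.1S, SOX4, a progenitor factor that is also needed in early B cells, had the largest fitted change among those above background on both sides. Its signal was -3.87 and -4.37 with DMSO, -2.96 and -2.36 with GSK126, -3.74 and -3.08 with UNC0638, and -2.14 and -1.25 with the combination. It rose by 2.42 on the log2 scale with the combination (SE 0.40, adjusted p = 0.00350), and by 1.12 with normexp background correction. The values with GSK126 alone did not pass (log2 change 1.46, SE 0.40, adjusted p = 0.0796), although the arrays did not overlap. The combination also exceeded UNC0638, by 1.71 (adjusted p = 0.0439), a call that 7 of 8 fits without 1 array lost (up to 0.172).

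SOX2 was already expressed in MM.1S, at 2.32 and 2.42 with DMSO. It was at 2.95 and 3.52 with GSK126, 2.45 and 2.84 with UNC0638 and 3.31 and 3.79 with the combination. The combination raised it by 1.18 (SE 0.25, adjusted p = 0.00949), and the adjusted p was 0.0508 without combination replicate 2. With GSK126 alone the change of 0.86 did not pass (adjusted p = 0.0922).

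LHX8, a LIM homeobox gene of cholinergic neurons and oocytes, rose with each agent and further with the combination. Its signal was 0.81 and 0.90 with DMSO, 1.52 and 1.56 with GSK126, 1.39 and 1.43 with UNC0638, and 1.97 and 2.14 with the combination. No group overlapped another, and both agents alone lay close together. It rose by 0.69 with GSK126 (SE 0.09, adjusted p = 0.0144), by 0.56 with UNC0638 (adjusted p = 0.0086) and by 1.20 with the combination (adjusted p = 0.00033). The combination exceeded GSK126 by 0.52 (adjusted p = 0.00803) and UNC0638 by 0.64 (adjusted p = 0.0165). The GSK126 call was lost without either DMSO or either GSK126 array (adjusted p up to 0.0811), and the call of the combination against UNC0638 without either UNC0638 array (0.0868 and 0.0666) or combination replicate 2 (0.0764). The calls of the combination against DMSO and against GSK126 held without each array in turn.

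DLX4, SIX5 and PITX1 also rose with the combination. DLX4 went from -3.64 and -3.63 to -2.66 and -3.03 (log2 change 0.79, adjusted p = 0.0187), SIX5 from 0.16 and 0.46 to 0.75 and 1.02 (0.57, adjusted p = 0.0445) and PITX1 from 4.67 and 4.70 to 4.93 and 5.02 (0.29, adjusted p = 0.0407). Without 1 array at a time, the call of DLX4 was lost without either DMSO array or combination replicate 1 (adjusted p up to 0.0881), that of SIX5 in 6 of 8 fits (up to 0.194) and that of PITX1 in 8 of 8 (up to 0.148). A second PITX1 probe gave 0.30 (adjusted p = 0.0298).

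DLX1 and DLX6, homeobox genes of forebrain interneurons and the jaw, fell below background in MM.1S where UNC0638 was present. DLX1 was at -3.89 and -3.94 with DMSO and -3.47 and -3.58 with GSK126, and all 4 arrays were above background. It was at -5.72 and -5.12 with UNC0638 and -6.20 and -6.71 with the combination, and none of these was. DLX1 was at least 1.83-fold lower with UNC0638 (adjusted p = 0.0081) and at least 1.90-fold lower with the combination (adjusted p = 0.000555), calls that held without each array in turn. The combination was also at least 2.49-fold below GSK126 (adjusted p = 0.00129). A second DLX1 probe, at chr2:172951807-172951866 (GRCh37), was below background on all 16 arrays, while the probe described here lay at chr2:172953991-172954050.

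DLX6 was also lower in the groups that had UNC0638, with a wider spread between replicates. Its signal was -3.80 and -2.77 with DMSO, -4.05 and -3.88 with GSK126, -6.42 and -4.87 with UNC0638 and -5.60 and -4.74 with the combination. It was above background on the DMSO and GSK126 arrays only. Its signals of -4.87 (UNC0638 replicate 2) and -4.74 (combination replicate 2) lay at the edge of detection. The lowest signals well above background on those arrays were -4.86 and -4.74. DLX6 was at least 2.83-fold lower with UNC0638 (adjusted p = 0.0316) and at least 2.94-fold lower with the combination (adjusted p = 0.0380), and each call was lost in 5 of 8 fits that left out an array (adjusted p up to 0.136 and 0.171).

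LHX6, which acts with DLX factors in interneurons, was at -3.13 and -3.54 with DMSO, -3.21 and -3.00 with GSK126, -3.97 and -5.20 with UNC0638 and -4.67 and -5.55 with the combination. It was at least 2.59-fold lower with the combination (adjusted p = 0.0190), and the call was lost without DMSO replicate 1 (0.0921) or combination replicate 2 (0.0968). POU3F4, a neural POU factor, was at -4.05 and -4.41 with DMSO and at -5.23 and -4.81 with the combination, at least 1.53-fold lower (adjusted p = 0.0178). Without DMSO replicate 1 or combination replicate 1 its adjusted p was 0.0914 or 0.0800.

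A gene that was above background on both DMSO arrays and on neither treated array counted as fallen below it. In MM.1S, 31 of the 89 genes could fall. DLX1 and DLX6 fell below background with UNC0638 (6.45% of 31) and DLX1, DLX6, LHX6 and POU3F4 with the combination (12.9%), against 0.749% and 1.23% of the 15753 genes of all symbols above background with DMSO. These 4 genes were dim, from -4.41 to -2.77 with DMSO, where the lowest signals well above background were -4.83 and -4.72. The genes of all symbols were not matched to them for level, and no test was made of the difference. With GSK126, NKX6-3 fell below it (3.23%, background 0.54%), from -4.41 and -4.15 to -4.76 and -5.54, a change that did not pass (adjusted p = 0.275). In RPMI-8226, 0 of 18 genes fell below background with any treatment, where the backgrounds were 0.637% with GSK126, 0.562% with UNC0638 and 1.2% with the combination.

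**Figure D3:**
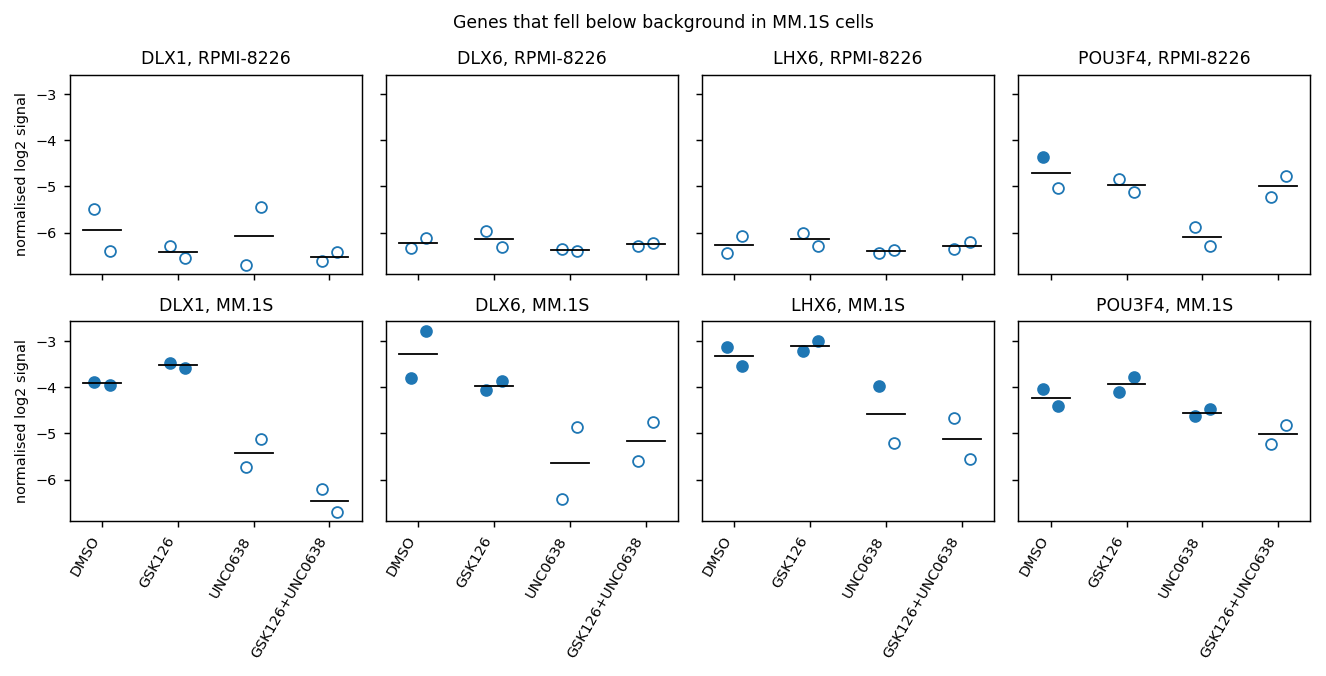
Normalized log2 signal (vertical axis) of DLX1, DLX6, LHX6 and POU3F4 by treatment in RPMI-8226 (top) and MM.1S (bottom), 2 arrays a group. Filled points are above background and bars are means: in MM.1S all 4 genes were above background with DMSO and GSK126, and none was with the combination.

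Of the 4 POU3F genes, 3 fell with the combination in MM.1S, where 31.9% of all genes did. POU3F2, which acts in neurons and melanocytes, was at -0.96 and -1.07 with DMSO, -0.62 and -0.42 with GSK126, -1.95 and -2.16 with UNC0638 and -2.12 and -2.05 with the combination. It fell by 1.04 with UNC0638 (SE 0.11, adjusted p = 0.00328) and by 1.07 with the combination (SE 0.11, adjusted p = 0.000814), and the combination lay 1.57 below GSK126 (log2 change -1.57, adjusted p = 0.00110). POU3F1 went from 1.52 and 1.43 with DMSO to 0.82 and 0.75 with the combination and fell by 0.69 (SE 0.11, adjusted p = 0.00293). POU3F4 is given above, and POU3F3 was above background on 1 array only and was not tested. With UNC0638 alone POU3F4 and POU3F1 did not pass (log2 changes -0.32 and -0.29, adjusted p = 0.269 and 0.0887), and with GSK126 none of the 3 did (0.50 for POU3F2, 0.29 for POU3F4 and -0.20 for POU3F1).

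TBX2, a T-box repressor of senescence genes, moved in opposite directions with the agents in MM.1S. Its signal was -1.48 and -1.58 with DMSO, -1.13 and -1.03 with GSK126, -2.18 and -2.29 with UNC0638 and -2.00 and -2.13 with the combination. It rose by 0.45 with GSK126 (SE 0.10, adjusted p = 0.0463, lost without each array in turn), fell by 0.71 with UNC0638 (adjusted p = 0.00559) and fell by 0.53 with the combination (adjusted p = 0.00476).

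The remaining genes that fell with the combination in MM.1S were above background in all 8 groups. MSX1 fell by 0.70 (SE 0.08, adjusted p = 0.00111), NKX2-3 by 0.74 (adjusted p = 0.0174), NKX1-2 by 0.70 (adjusted p = 0.0374), LHX3 by 0.54 (adjusted p = 0.0345) and NKX2-5 by 0.36 (adjusted p = 0.0199). The value of LHX3 comes from 1 probe, since its other probe was below background throughout. The call of MSX1 held without each array in turn, and those of NKX2-3, NKX1-2, LHX3 and NKX2-5 were lost in 3, 5, 5 and 2 of 8 fits (adjusted p up to 0.0904, 0.123, 0.150 and 0.0995). The change of NKX2-5 was 0.08 under quantile normalization, the opposite sign. Of the 14 genes above background in all 8 groups, 7 fell and 1, SIX5, rose with the combination in MM.1S. Over all genes 31.9% fell and 23.3% rose there. In RPMI-8226, 1 of the 14, SOX8, fell, where 5.01% of all genes did. No test was made of the difference from all genes. IRX5, PITX3, SIX4, SOX8, SOX13 and TBX19 did not pass in MM.1S.

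**Figure D4:**
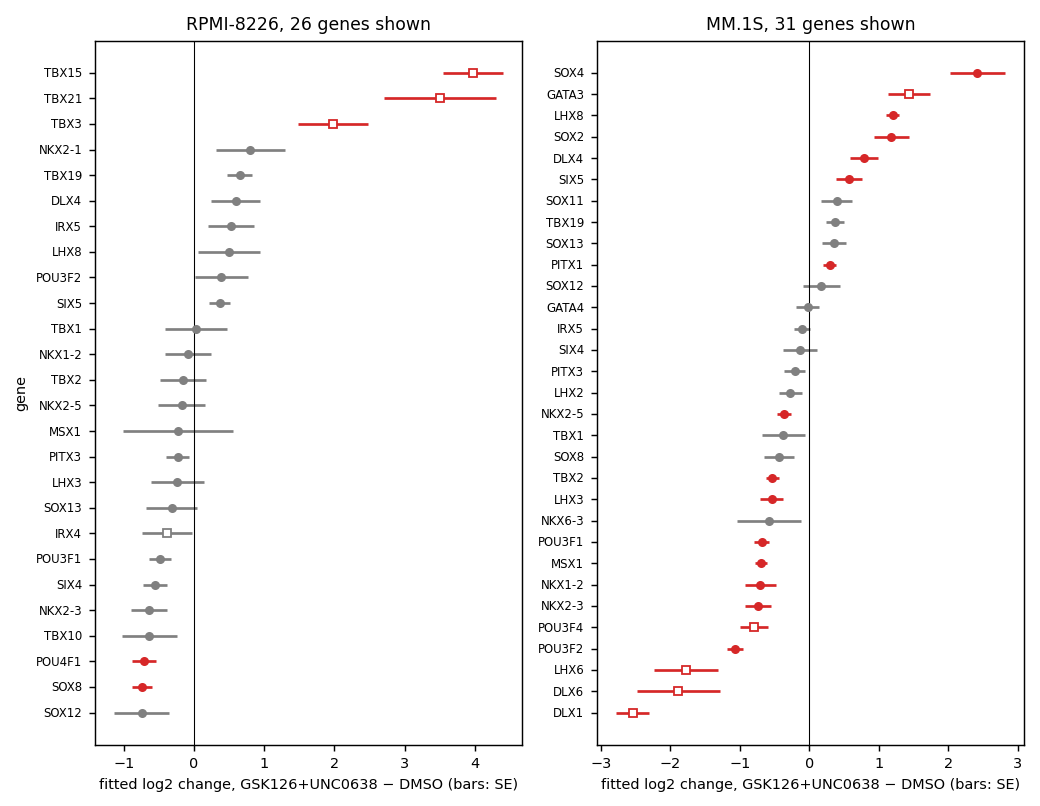
Fitted log2 change with the combination minus DMSO (horizontal axis, bars are SE) for the 26 genes tested in RPMI-8226 and 31 of the 32 tested in MM.1S. Red marks have an adjusted p under 0.05, and open squares mark genes with 1 group below background on both arrays, whose fitted change is not a measured fold: 5 genes are red in RPMI-8226 and 19 in MM.1S.

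The combination was set against each agent alone to ask what the second inhibitor added. In RPMI-8226, TBX15 was higher with the combination than with GSK126, the 1 call among 26 (background 2.87%, either direction), and the block made it 3 calls with MSX1 and POU4F1. Against UNC0638 there were 0 calls (background 3.77%), with 7 of 26 at an unadjusted p under 0.05, and 1, TBX3, with the block. In MM.1S, 10 of 32 genes differed from GSK126 (background 38.3%), 8 of them lower with the combination: MSX1, POU3F4, TBX2, LHX2, LHX6, DLX1, POU3F2 and POU3F1. SOX11 and LHX8 were higher. Against UNC0638, 5 of 32 differed (background 14.1%). SOX4 and LHX8 were among the 3 that were higher, and MSX1 and DLX1 were lower. Both groups of the last comparison were below background for DLX1, so it has no fold. Without 1 array at a time, DLX1 lost this call in 8 of 8 fits and MSX1 in 7 of 8, and SOX11 lost its call against GSK126 in 7 of 8.

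Neighbouring genes of a cluster often differed in whether a probe of theirs was above background. DLX5, SIX6, TBX4, NKX2-8, IRX3 and IRX6 were each read by 1 probe. A gene below background here may therefore still be expressed. TBX3 turned above background in RPMI-8226 while TBX5, beside it, was below background on all 16 arrays. DLX6 was above background in MM.1S with DMSO and with GSK126, and DLX5, its partner in the pair, was below background on all 16 arrays. DLX2 was above background on 2 single arrays, 1 in each line, and DLX3 on none, although DLX1 and DLX4 were expressed in MM.1S. SIX4 was above background on all 16 arrays and SIX6 of the same cluster on none. Likewise IRX5 was above background on all 16 arrays and IRX3 and IRX6 on none, IRX4 on 3 and IRX1 and IRX2 on none, NKX2-1 on 8 and NKX2-8 on none, and TBX2 on 16 and TBX4 on none. The SIX2 and SIX3 pair and the NKX2-2 and NKX2-4 pair were below background throughout.

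The probes of SOX13, a factor of gamma-delta T cells and the nervous system, disagreed. The probe at chr1:204096551-204096610 (GRCh37, plus strand) was at -4.27 and -4.20 with DMSO and at -2.85 and -2.22 with the combination in MM.1S and rose by 1.70 (SE 0.23, adjusted p = 0.00186). It also rose with UNC0638, by 1.31 (adjusted p = 0.0115). The probe at chr1:204088800-204088859 was below background on both DMSO arrays and at least 2.16-fold higher with the combination (adjusted p = 0.0261). The probe at chr1:204086258-204086317, which had the highest mean in MM.1S and stood for the gene in the counts, was at -1.27 and -1.05 and at -0.87 and -0.73, and its change of 0.36 did not pass (adjusted p = 0.137). In RPMI-8226 none of the 3 probes passed. Whether these probes read different transcripts was not tested.

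Most tested genes of partner proteins of these families rose with the combination in MM.1S. The list was written with earlier results of these data known. The list held 24 genes (EYA and DACH partners of SIX4 and its relatives, LMO and LDB partners of LHX and GATA, ZFPM partners of GATA, and the TLE, PBX and MEIS cofactors). With the combination, 14 of 17 tested rose and 2 fell, with a median log2 change of 0.73, against 23.3% higher, 31.9% lower and a median of -0.11 over all genes. EYA2, DACH1, LMO2 and LMO3, all among the 14, turned above background there. They were below it with DMSO and were tested only because of their signal with an inhibitor. The median of 0.73 thus includes signals at background. In RPMI-8226, 4 of 17 rose (TLE1, TLE4, LMO2 and LMO4) and TLE2 fell, with a median of 0.17, against 8.12%, 5.01% and -0.12 over all genes. LMO2 turned above background and was tested there only because of its signal with an inhibitor. With UNC0638 alone 7 of 17 rose and 1 fell in MM.1S (13.8% and 16.7% of all genes), and with GSK126 2 rose (5.74%). Other developmental transcription factors, 71 genes such as PAX, FOX and OLIG members, were counted in the same way. Of them 37 were below background on every array, 3 of 19 tested rose and 0 fell in RPMI-8226 with the combination, and 4 of 24 rose and 10 fell in MM.1S, where the shares over all genes were those just given. The MM.1S counts lay near these shares. Of the 7 genes of the targeted complexes, 0 changed in RPMI-8226 and 4 (EZH2, EED, SUZ12 and EHMT2) fell in MM.1S with the combination, beside 31.9% of all genes.

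Whether a response differed between the lines was tested over all 16 arrays. For GSK126 it differed for 0 of the factors (background 0.917%), with 5 at an unadjusted p under 0.05 by limma and 0 with the block. For UNC0638 it differed for TBX15 (background 3.2%), and for the combination for SOX2 and DLX1 (background 14.5%). TBX15 was below background on all MM.1S arrays, and SOX2 and DLX1 on all RPMI-8226 arrays, so each was tested only because of its signal in the other line. TBX15 was also below background with DMSO in RPMI-8226 and DLX1 with the combination in MM.1S. These differences are therefore fitted values and not measured sizes. The calls were lost in 5 (TBX15), 8 (SOX2) and 13 (DLX1) of 16 fits without 1 array (adjusted p up to 0.0599, 0.141 and 0.149), and that of DLX1 with the replicate block (0.0634). The responses of TBX21 and TBX15 to the combination did not pass this test (adjusted p = 0.0526 and 0.0535), and that of TBX21 did with the block (0.0155). The block also called DLX6 for UNC0638 (adjusted p = 0.114 without and 0.0214 with it), and DLX6 (0.0966 and 0.0153), LHX6 (0.0553 and 0.0256) and SOX4 (0.173 and 0.0414) for the combination, all 3 below background on every RPMI-8226 array. This block was fitted in both lines, although the replicate numbers of MM.1S were not taken as pairing, so these added calls carry little weight.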

How the data were processed

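Total RNA of 16 samples was hybridized to Agilent 1-color arrays, 1 per sample. The deposited intensities (the processed signal of each spot) were made by the authors with Agilent Feature Extraction 10.7 per the labels, with background subtraction and no normalization between arrays. The deposited table of the series held the same intensities, equal after rounding to the table's digits in 99.9958% of 939472 cases.

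Here control spots and outlier-flagged spots were left out, spots of a probe were averaged, and log2 intensity was centered on the 75th percentile of each array. Probes were kept in a line if both arrays of any of its groups called them well above background, and were tested with limma 3.58.1 in R 4.3.3, 1 fit per line over 8 arrays and 4 groups, with Benjamini-Hochberg adjustment over all such probes (23196 in RPMI-8226, 25100 in MM.1S) at 0.05. A gene was represented by its probe with the highest mean. The difference between lines came from 1 fit over 16 arrays. Probe positions are those of GRCh37 in the deposited files.

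The 89 genes were taken by a rule on gene symbols that used no values. That rule and the lists were set with earlier results of these data known. Genes were named if they turned above background, were among the 10 largest called changes with the combination in a line, differed between lines, were above background in all 8 groups, or neighbored such a gene. A few others were named after their values were seen. Precision is limited by having 2 arrays per group. No label says that same-numbered samples belong together. In RPMI-8226 the deviations of same-numbered arrays correlated in all 6 pairs of groups (r = 0.254 to 0.415), and the source of this was not tested. A fit with the number as a block is therefore given where it changed a call. Its adjusted p-values rest on the assumption that the numbers pair the samples. On simulated data with 200 probes changed by 1.5 on the log2 scale, the combination comparison recovered 58.5% in RPMI-8226 (4 false of 121 calls) and 79.5% in MM.1S (5 false of 164). The simulated noise was independent between arrays, few probes were changed and no background floor was set. These rates therefore need not hold for the calls given here, least of all near background. Quantile normalization, normexp background correction, another percentile, other filters and leaving out each array were tried as alternatives. The values of a few of the 89 genes are counted but not reported here by name.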

Additional observations from a re-analysis of the deposited data

Results flagged for a closer look

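The response to an inhibitor differed between the lines for 4 probes by limma's test of the difference (RPMI-8226 minus MM.1S, log2 scale). For TBX15 with UNC0638 the fitted difference was 3.43 (SE 0.60, adjusted p = 0.0164). With the combination it was -1.15 for SOX2 (SE 0.32, adjusted p = 0.0405), 1.96 for DLX1 (SE 0.56, adjusted p = 0.0462) and -2.02 for the SOX13 probe that rose in MM.1S (SE 0.47, adjusted p = 0.0214). The SOX13 probe that stood for the gene gave -0.19 (adjusted p = 0.723). SOX13 was above background on all 16 arrays with both of these probes, whereas TBX15 was below background on every MM.1S array and SOX2 and DLX1 on every RPMI-8226 array. TBX15 was also below background with DMSO in RPMI-8226, and DLX1 with the combination in MM.1S. The values of these 3 genes are fitted differences that include signals at background, not measured sizes. Groups held 2 arrays, too few to look for a sample far from the others.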

How the results depend on the processing

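With 2 arrays a group and signals near background, single calls were fragile, and the bounds say only that a change was at least so large. The numbers of genes called against DMSO moved as follows. In RPMI-8226, GSK126 gave 0 and 1 with the replicate block. UNC0638 gave 1, with 0 for probes above background on all 8 arrays, 2 with the replicate block and 2 with 1 fit over all 16 arrays. The combination gave 5, with 3 under normexp, 2 without the filter on dim probes and 2 for probes above background on all 8 arrays. In MM.1S, GSK126 gave 2, with 1 under quantile normalization, 4 under normexp, 0 without the filter and 0 with the 16-array fit. UNC0638 gave 8 and the combination 19, with 5 and 12 without the filter and 5 and 12 with the 16-array fit. With the percentile over probes detected on all arrays, the share of calls that were higher moved from 60% to 100% in RPMI-8226 and from 36.8% to 52.9% in MM.1S with the combination, and under normexp from 25% to 11.1% in MM.1S with UNC0638. The causes were not tested.

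The combination against GSK126 gave 1 in RPMI-8226, with 2 without the filter, 0 for probes above background on all 8 arrays, 3 with the replicate block and 2 with the 16-array fit, and 10 in MM.1S, with 6 with the 16-array fit. Against UNC0638 it gave 0 in RPMI-8226, with 1 without the filter, 1 with the replicate block and 2 with the 16-array fit, and 5 in MM.1S, with 2 without the filter and 2 with the 16-array fit. Line differences with UNC0638 gave 1, with 3 under normexp, 2 with the other percentile, 2 with the replicate block and 0 for probes kept in both lines. With the combination they gave 2, with 7 under normexp, 5 with the replicate block and 1 for probes kept in both lines.

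Genes turning above background with the laxer flag numbered 0 and 0 in RPMI-8226 with GSK126 and UNC0638, and 2 and 2 in MM.1S. With 1 treated array enough, they numbered 4 and 2 in MM.1S. With a bound above 2-fold, 1 was left in RPMI-8226 with UNC0638 and 0 in MM.1S with the combination. NKX2-5 in MM.1S with the combination reversed to 0.0773 on the log2 scale under quantile normalization.

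Leaving out 1 array at a time gave 0 to 0, 0 to 1 and 1 to 2 calls in RPMI-8226 (GSK126, UNC0638, combination) and 0 to 1, 4 to 9 and 9 to 16 in MM.1S. The combination gave 0 to 3 against GSK126 and 0 to 0 against UNC0638 in RPMI-8226, and 5 to 11 and 0 to 3 in MM.1S. Genes turning above background ranged from 1 to 4, 2 to 4 and 3 to 6 in RPMI-8226 and from 0 to 3, 0 to 1 and 1 to 1 in MM.1S. Line differences ranged from 0 to 2, 0 to 2 and 0 to 4. Of 664 alternatives for 42 fold changes of single genes, 557 kept direction and side of the threshold, 94 lost the call, 12 gained one and 1 reversed. The 42 included genes that were not called at first and so had no call to lose. As a share of the 664, the 94 therefore understate how often a call was lost. In MM.1S same-numbered arrays correlated at 0.0847 to 0.225, under 0.1 in 1 pair of groups, so the numbers were not taken as pairing. The replicate block gave 3, 12 and 20 calls there. The slide could not be fitted as a block, since each line had 1 slide.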
